A study of Mus musculus with 6 samples.

Results

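The genes described here are 10 genes of aerobic glycolysis and lactate transport. They were measured in arrays labelled as mouse retina with the Nxnl2 gene deleted or intact. They were taken by name, and every probe set whose annotation names exactly 1 of them was used. This gave 20 probe sets of 45037, and 10 of the 18193 genes that the array measures. A further probe set that names Hk1 together with other genes was left out. By their labels, the knockout-labelled arrays carry retinal RNA of BALB/c AJ mice with the genotype ko/ko for Nxnl2. The wild-type arrays are labelled as retinal RNA of wt/wt mice of this strain. All mice were at post-natal day 40, and the pigment epithelium had been dissected away from the retina in both groups. There are 3 arrays per group, numbered 1 to 3. Whether each array stands for 1 animal or for several is not in the labels, so the p-values cover the spread between these arrays alone, and that spread may be technical. They also do not say in which cells Nxnl2 is deleted.

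Photoreceptors are known for turning much of their glucose into lactate even when oxygen is present. Hexokinases trap glucose in the cell, and bifunctional enzymes of the Pfkfb family set the pace of the phosphofructokinase step. Aldolase then splits the sugar, lactate dehydrogenase interconverts pyruvate and lactate, and monocarboxylate transporters carry lactate across membranes. Nxnl2 encodes rod-derived cone viability factor 2. Its close relative, the product of Nxnl1, is known to act on cone glucose uptake through basigin and the glucose transporter GLUT1.

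The array labelled knockout replicate 3 stands apart and is given separately throughout. The brighter Nxnl2 probe set read 3.78 and 3.73 (log2) in knockout replicates 1 and 2, but 9.21 in the third knockout-labelled array, against 11.38, 11.45 and 11.42 in wild type. Nxnl2 thus goes against the label of that array. Over all probe sets that array correlated with the others at 0.848 to 0.853, against 0.994 to 0.996 among the other 5 (Pearson r across probe sets, which are not independent replicates). In it all 14 measured rod markers lay more than 1 log2 unit below the wild-type mean and all 11 measured olfactory and nasal markers as far above. The log2 of the summed level of the rod list was 12.83 there, against 17.04 and 17.12 in knockout replicates 1 and 2 and 17.11 to 17.15 in wild type. That sum rests on Gnb1, which read 12.78 there. The median of the rod list was 4.04 there, against 13.27 and 13.45 in knockout replicates 1 and 2 and 13.32 to 13.47 in wild type. The log2 of the summed level of the olfactory and nasal list was 16.62 there. It was 8.79 and 8.84 in the other knockout arrays and 8.67 to 8.81 in wild type. Only 6 of the 14 rod markers lay above the highest Bacillus control there, and all 14 did in each of the other 5 arrays. These control probe sets match no mouse transcript, and their highest value, 4.13 to 4.60 (log2) by array, marks background here.

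**Figure D1:**
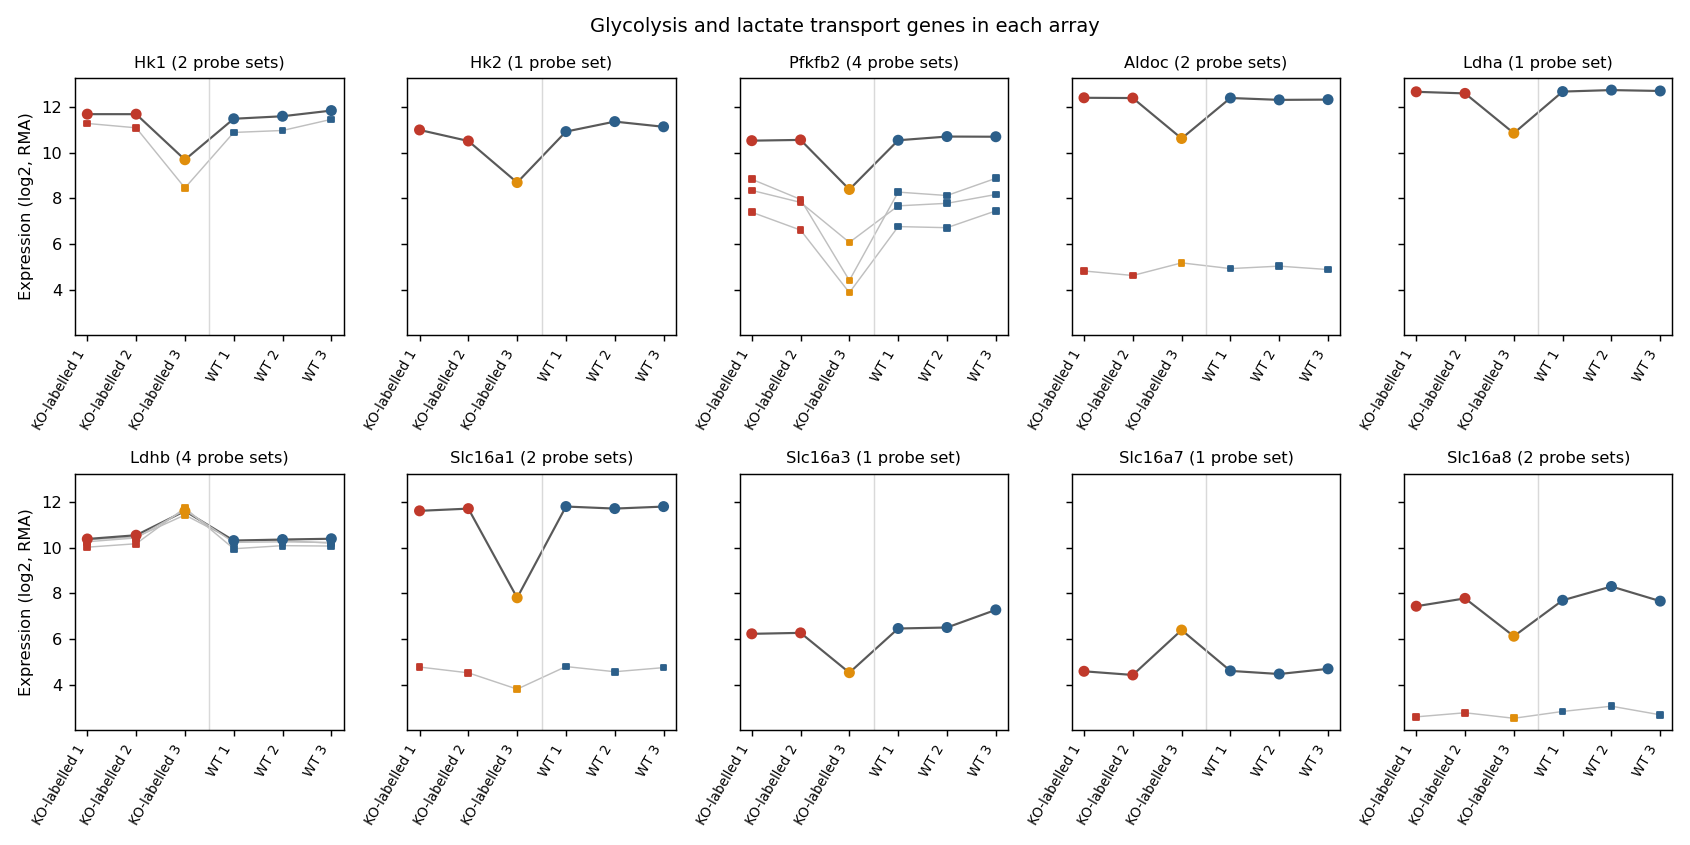
Log2 expression (RMA, y axis) of the 10 genes in each of the 6 arrays (x axis), with the knockout-labelled arrays left of the wild-type arrays; circles are the brightest probe set of a gene, squares its other probe sets, and levels of different probe sets are not comparable. In the array labelled knockout replicate 3 (orange), Slc16a1 read 7.81 against at least 11.61 elsewhere, while every Ldhb probe set lay above the other 5 arrays.

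Upstream sequence is shown for 4 members, the lactate dehydrogenase pair Ldha and Ldhb, which lay on opposite sides in the array labelled knockout replicate 3, and the transporters Slc16a1 and Slc16a3. Each line gives the 250 bases before the annotated gene start, 5′ to 3′ on the strand of the gene, from RefSeq (GRCm38.p6). Where RefSeq lists several starts, the first listed was taken. Capitals mark ACGTG on either strand (CACGT on the other), the core of the sites bound by hypoxia-inducible factors. Where both overlap they form the palindrome CACGTG, an E-box. These 4 genes, and the motif in capitals, were chosen after expression values and motif matches had been seen.
Ldha (chr7:46845554-46845803, plus strand): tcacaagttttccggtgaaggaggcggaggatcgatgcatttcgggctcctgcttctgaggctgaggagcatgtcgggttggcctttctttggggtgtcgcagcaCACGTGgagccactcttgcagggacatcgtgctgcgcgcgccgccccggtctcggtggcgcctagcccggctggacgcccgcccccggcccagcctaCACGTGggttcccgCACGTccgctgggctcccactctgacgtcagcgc
Ldhb (chr6:142507958-142508207, minus strand): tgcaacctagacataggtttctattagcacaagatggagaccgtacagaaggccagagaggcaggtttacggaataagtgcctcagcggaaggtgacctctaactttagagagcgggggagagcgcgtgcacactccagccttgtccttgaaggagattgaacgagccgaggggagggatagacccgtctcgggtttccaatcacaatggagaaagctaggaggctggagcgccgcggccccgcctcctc
Slc16a1 (chr3:104638414-104638663, plus strand): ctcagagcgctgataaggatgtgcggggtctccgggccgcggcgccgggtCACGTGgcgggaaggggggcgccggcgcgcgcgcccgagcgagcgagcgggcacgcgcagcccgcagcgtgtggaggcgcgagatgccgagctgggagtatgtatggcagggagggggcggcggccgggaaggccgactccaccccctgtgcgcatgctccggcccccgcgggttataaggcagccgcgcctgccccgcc
Slc16a3 (chr11:120948817-120949066, plus strand): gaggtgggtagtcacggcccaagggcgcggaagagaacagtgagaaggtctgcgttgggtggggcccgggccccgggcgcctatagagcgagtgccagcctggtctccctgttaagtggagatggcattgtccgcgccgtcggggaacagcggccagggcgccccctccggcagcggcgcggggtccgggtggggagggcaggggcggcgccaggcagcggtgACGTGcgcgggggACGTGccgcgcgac

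Ldha had 3 stretches in capitals, of which 2 were CACGTG, whose first bases lay 145 and 48 bases before the start. Slc16a1 had 1, a CACGTG 200 bases before the start, and Slc16a3 had 2 copies of ACGTG, at 27 and 14 bases. Ldhb had none. Of the 10 members, 9 had an upstream window, and 5 of these held ACGTG on either strand, the other two being Hk2 and Pfkfb2. Over all 32851 windows of this length in the table, 16.6% held it. CACGTG, which contains ACGTG, stood in 3 of the 9 windows and in 6.02% of all windows. The search covered 2 further motifs. GCGTG on either strand (CACGC on the other), another form of that core, stood in 4 of the 9 windows and in 28.2% of all windows. GGATTA on either strand (TAATCC on the other), a core bound by the photoreceptor factor Crx, stood in 1 of the 9, that of Aldoc, and in 6.25% of all windows. The choice among starts changes these counts. Over all 14 listed windows of the members, ACGTG stood in 6, CACGTG in 3, GCGTG in 8 and GGATTA in 2. Windows of members differ in base composition, with a GC content of 67.2% for Ldha, 56.4% for Ldhb, 76.4% for Slc16a1 and 73.6% for Slc16a3. The 5 member windows with ACGTG had a GC content of 66.8% to 76.4%, and the 4 without it 49.6% to 58.8%. The shares over all windows were not matched for GC content. A match is a description of the letters and no evidence of binding.

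In knockout replicates 1 and 2 the glycolysis and lactate transport genes did not pass the test against wild type. None of the 20 probe sets was called by limma at an adjusted p of 0.05 over all probe sets, where 0.0111% of all probe sets were called, and each had an adjusted p = 1. At an unadjusted p under 0.05 stood 0 of the 20, where 3.05% of all probe sets stood. Log2 changes ran from -0.50 for Slc16a3 to 0.21 for a Pfkfb2 probe set other than its brightest. Their median was -0.04 over the 20 against 0.00 over all probe sets. The groups did not overlap for 4 member probe sets on the lower side, where 7.86% of all probe sets did so, and for 2 on the higher side, where 8.4% did.

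The hexokinases differed in how much they varied. Hk1, the hexokinase of most neurons, read 11.68 and 11.67 in knockout replicates 1 and 2 by its brighter probe set, against 11.47, 11.58 and 11.83 in wild type. The knockout values lie within the wild-type range, and the log2 change was 0.05 (95% interval -0.24 to 0.33). The other Hk1 probe set read 11.27 and 11.08 in knockout replicates 1 and 2, against 10.88, 10.96 and 11.45 in wild type. Hk2, the hexokinase that marks photoreceptors in the retina, read 10.99 and 10.50 in knockout replicates 1 and 2, against 10.91, 11.35 and 11.12 in wild type. Knockout replicate 2 lay below all wild-type arrays, while knockout replicate 1 lay between them. The log2 change of Hk2 was -0.39 (95% interval -0.79 to 0.02, limma adjusted p = 1). Without knockout replicate 2 it was -0.14, and without knockout replicate 1 it was -0.63, where the lone knockout array takes its spread from the wild type.

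Knockout replicate 2, where Hk2 was lowest of these 5 arrays, is also the array where muscle transcripts were most abundant. All 12 skeletal muscle markers were highest there among the 5 arrays, and 10 of them lay more than 1 log2 unit above the wild-type mean. The log2 of their summed level was 9.25 in knockout replicate 1 and 10.91 in knockout replicate 2, against 9.19 to 9.56 in wild type. All 12 lay above background in knockout replicate 2, and 6 to 7 did in the other 5 arrays. The muscle list and Hk2 do not share an order over the arrays, and the part of muscle RNA in the Hk2 values was not tested.

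Pfkfb2, the bifunctional enzyme that makes and removes fructose 2,6-bisphosphate, showed 1 pattern in its brightest probe set and another in the other three. The brightest read 10.52 and 10.55 in knockout replicates 1 and 2, against 10.53, 10.70 and 10.69 in wild type, a log2 change of -0.11 (95% interval -0.34 to 0.13). Another probe set read 8.83 and 7.95 in knockout replicates 1 and 2, against 8.27, 8.12 and 8.87 in wild type. In each of the 3 dimmer probe sets the 2 highest arrays were knockout replicate 1 and wild-type replicate 3, so the difference ran between arrays and not between groups. Across all probe sets the deviations of these 2 arrays from their group means also went together (r = 0.19 across probe sets, in the 5 arrays). Aldoc, the aldolase of brain and retina, had the smallest spread over these 5 arrays among the brightest probe sets of the members (SD 0.04). It read 12.39 and 12.38 in knockout replicates 1 and 2, against 12.38, 12.30 and 12.31 in wild type, with a log2 change of 0.05 (95% interval -0.16 to 0.27). Its dim probe set read 4.82 and 4.62 in knockout replicates 1 and 2, against 4.93, 5.03 and 4.88 in wild type. All those values lay above the highest Bacillus control of their array by less than 1 log2 unit.

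Both lactate dehydrogenase genes lay close to wild type in knockout replicates 1 and 2. Ldha, the subunit that favours lactate formation, read 12.65 and 12.58, against 12.66, 12.73 and 12.69 in wild type. The groups do not overlap, yet the log2 change was only -0.08 (95% interval -0.29 to 0.14, limma adjusted p = 1). Ldhb, the subunit that favours pyruvate formation, was measured by 4 probe sets with changes of 0.06 to 0.13. Its brightest probe set read 10.38 and 10.55 in knockout replicates 1 and 2, against 10.31, 10.36 and 10.39 in wild type. There the groups overlap, and the log2 change was 0.11 (95% interval -0.12 to 0.34). It was 0.03 without knockout replicate 2 and 0.19 without knockout replicate 1. Of the 4 Ldhb probe sets, 2 had groups without overlap, and 2 are of a type (_x_at) whose probes may cross-hybridise.

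Among the monocarboxylate transporters, Slc16a3 had the lowest log2 change of the list and Slc16a1 lay close to wild type. Slc16a1, which encodes MCT1, read 11.61 and 11.71 in knockout replicates 1 and 2, against 11.80, 11.71 and 11.80 in wild type. Knockout replicate 2 lay less than 0.01 below the nearest wild-type array, and the log2 change was -0.11 (95% interval -0.33 to 0.12). A dim Slc16a1 probe set gave -0.06. Slc16a3, which encodes MCT4, the lactate exporter of strongly glycolytic cells, read 6.24 and 6.28 in knockout replicates 1 and 2, against 6.47, 6.51 and 7.28 in wild type. Both knockout arrays lay below every wild-type array, and wild-type replicate 3 lay far above the other two. The log2 change of Slc16a3 was -0.50 (95% interval -1.02 to 0.03, limma unadjusted p = 0.0596, adjusted p = 1). Leaving out wild-type replicate 3 gave -0.23. Slc16a7, which encodes MCT2, a lactate importer of high affinity, read 4.60 and 4.44 in knockout replicates 1 and 2, against 4.62, 4.48 and 4.71 in wild type. These values stand near background, and that of wild-type replicate 2 lay below its highest Bacillus control.

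Slc16a8, which encodes MCT3, is known as the lactate transporter of the pigment epithelium. Its brighter probe set read 7.44 and 7.78 in knockout replicates 1 and 2, against 7.70, 8.31 and 7.67 in wild type. The groups overlap, and wild-type replicate 2 was the highest array. The log2 change of Slc16a8 was -0.28 (95% interval -0.74 to 0.19, limma adjusted p = 1). Leaving out wild-type replicate 2 gave -0.07, and leaving out knockout replicate 1 gave -0.11. The dim probe set of Slc16a8 lay below the highest Bacillus control in all 6 arrays, at 2.55 to 3.07.

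Slc16a8 and the summed level of the pigment epithelium markers, a pair set side by side after values were seen, put the 6 arrays in 1 order. From high to low this was wild-type replicate 2, knockout replicate 2, wild-type replicates 1 and 3, knockout replicate 1 and the array labelled knockout replicate 3. The median of the markers gave another order, with 7.46 in knockout replicate 2 below 7.61 in wild-type replicate 1, and 9 of the 14 markers lay that way. The log2 of the summed level of the 14 markers was 13.38 and 13.72 in knockout replicates 1 and 2, but 11.02 in the third knockout-labelled array, against 13.57 to 14.11 in wild type. Among the 5 arrays, 11 of the 14 markers were highest in wild-type replicate 2. All 14 lay above background in each of these 5 arrays, and 10 did in the array labelled knockout replicate 3. The retinoid isomerase gene Rpe65 of the pigment epithelium read 9.54 and 10.02 in knockout replicates 1 and 2, yet 4.12 in the third knockout-labelled array, against 10.15, 10.82 and 9.90 in wild type. The labels describe retina freed of this epithelium, and in bulk tissue fewer cells of a type and less RNA per cell cannot be told apart. Lens transcripts were also most abundant in wild-type replicate 2. All 9 measured lens markers were highest there among the 5 arrays, and 8 lay more than 1 log2 unit above the wild-type mean. The log2 of their summed level was 11.09 and 11.35 in knockout replicates 1 and 2, yet only 7.37 in the third knockout-labelled array, against 11.28, 14.05 and 11.21 in wild type. Hk2 was highest in wild-type replicate 2 as well, and its log2 change without that array was -0.27. The part of pigment epithelium or lens RNA in the values of Slc16a8 and Hk2 was not tested.

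**Figure D2:**
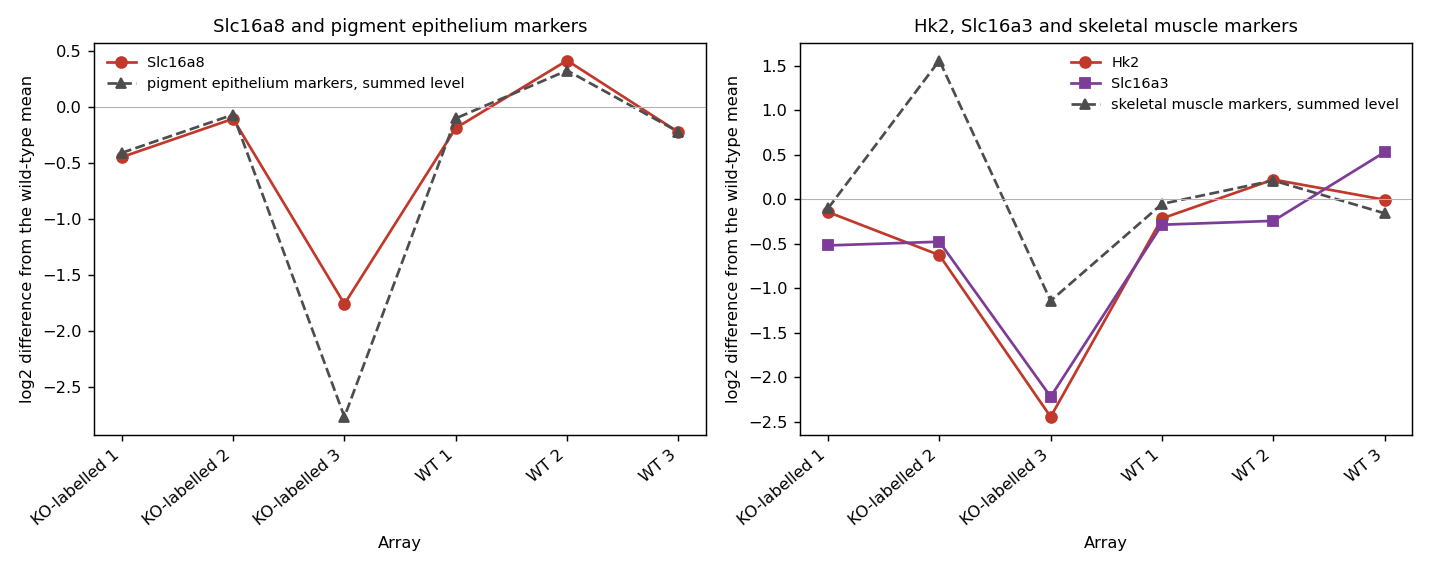
Log2 difference from the wild-type mean (y axis) in each array (x axis, knockout-labelled arrays left of wild type) for Slc16a8 beside the summed level of pigment epithelium markers, and for Hk2 and Slc16a3 beside that of skeletal muscle markers. Slc16a8 and the summed pigment epithelium markers keep 1 order over the 6 arrays, which the median of these markers does not, whereas the muscle markers peak in knockout replicate 2, where Hk2 was lowest among the arrays other than the one labelled knockout replicate 3.

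**Figure D3:**
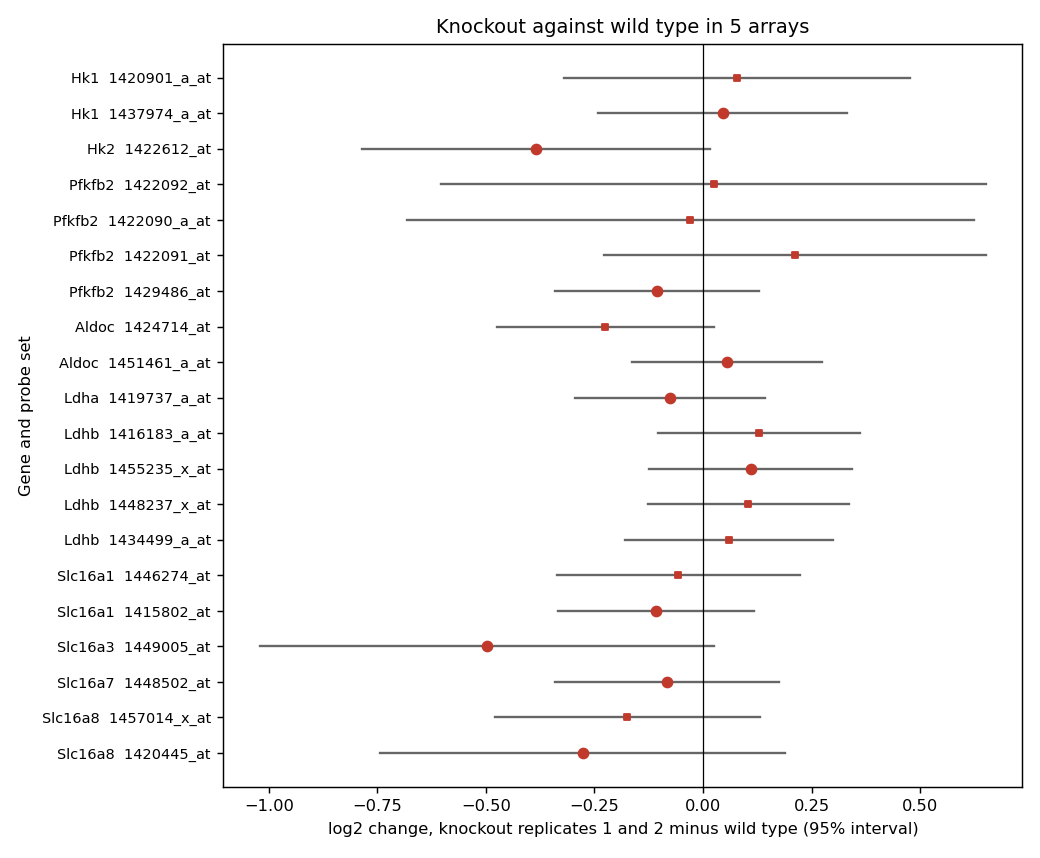
Log2 change of each member probe set (y axis), knockout replicates 1 and 2 minus the 3 wild-type arrays (x axis), with its 95% interval from limma; circles are the brightest probe set of a gene and squares the others. Every interval spans 0, and that of Slc16a3 is the lowest, from -1.02 to 0.03.

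In the array labelled knockout replicate 3 the list split, with 8 genes below the other arrays and 2 above. By the brightest probe set, 8 of the 10 members lay more than 1 log2 unit below the mean of the other 5 arrays, where 11.5% of all genes did so, and 2 lay as far above, where 15.8% of all genes did. Over probe sets the counts were 12 of 20 below, where 11% of all probe sets did so, and 5 above, where 12% did. This array is a single sample, so these differences have no replicate check and no test. Rod markers were also lower in this array, as were 9 of the 10 measured cone markers, while olfactory and nasal markers were higher. The part of the lower photoreceptor RNA and of the higher olfactory and nasal RNA in these differences was not tested. The 3′ minus 5′ difference of the Gapdh control, a sign of RNA integrity, was 0.44 (log2) there against -0.04 to 0.05 in the other arrays, while that of beta-actin was 1.07 against 1.01 to 1.24.

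On the lower side, Slc16a1, the MCT1 gene, had the largest difference among the brightest probe sets. Slc16a1 read 7.81 in the array labelled knockout replicate 3 against 11.72 ± 0.08 (SD, n = 5) in the other arrays, which is 15.1-fold lower. Hk1 read 9.68 there against 11.65 ± 0.13 (SD, n = 5) by its brighter probe set and 8.45 against 11.13 ± 0.23 (SD, n = 5) by the other. Hk2 read 8.69 against 10.98 ± 0.31 (SD, n = 5), 4.88-fold lower. Both hexokinases thus lay below every other array, by gaps well beyond the spread of those arrays. All 4 Pfkfb2 probe sets were lower, by 3.69-fold to 16.0-fold, and the brightest read 8.38 against 10.60 ± 0.09 (SD, n = 5). Aldoc read 10.61 against 12.35 ± 0.04 (SD, n = 5), 3.34-fold lower. The dim Aldoc probe set went the other way, at 5.18 against at most 5.03 in the other arrays. Slc16a3 and Slc16a8 lay below the other 5 arrays as well. Slc16a3 read 4.54 against 6.56 ± 0.42 (SD, n = 5), and Slc16a8 read 6.13 against 7.78 ± 0.32 (SD, n = 5). The brightest probe sets of all these genes stayed above the highest Bacillus control of that array (4.13), Slc16a3 by less than 1 log2 unit. The Pfkfb2 probe set with the 16.0-fold difference, at 4.41, also stood less than 1 log2 unit above it. Another Pfkfb2 probe set (3.88) and the dim one of Slc16a1 (3.82, a log2 difference of -0.87) lay below it. Background limits the differences of such probe sets.

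The lactate dehydrogenase pair lay on opposite sides. Ldha read 10.84 in the array labelled knockout replicate 3 against 12.66 ± 0.05 (SD, n = 5) in the others, 3.53-fold lower. Ldhb read 11.60 against 10.40 ± 0.09 (SD, n = 5) by its brightest probe set, 2.30-fold higher, and the other three were 2.15-fold to 3.20-fold higher. Every one of the 4 lay above all other arrays, as 31.4% of all probe sets did. The transporters split in the same array, since Slc16a7 read 6.40 there against 4.57 ± 0.11 (SD, n = 5). As the other arrays stand near background, it was at least 3.51-fold higher, with values under the highest Bacillus control set to that control. Its value there is the only one of the 6 arrays more than 1 log2 unit above the highest Bacillus control.

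With all 6 arrays, the comparison that the series describes, none of the 20 probe sets was called by limma either, where 0% of all probe sets were, and 0 of them had an unadjusted p under 0.05, where 1% of all probe sets did. The lowest adjusted p among them was 0.798. Slc16a1 had a log2 change of -1.39 (SE 1.09), which was -0.11 without the array labelled knockout replicate 3. Hk2 and Slc16a3 each stood at -1.07 (SE 0.61 for Hk2 and 0.54 for Slc16a3), Ldha at -0.67 (SE 0.51) and Ldhb at 0.49 (SE 0.33). Without that array Hk2 stood at -0.39, Slc16a3 at -0.50, Ldha at -0.08 and Ldhb at 0.11. For Slc16a7 the log2 change was 0.55 (SE 0.54) with that array and -0.08 without it. The groups did not overlap for 3 member probe sets on the lower side, where 4.54% of all probe sets did so, and for 2 on the higher side, where 3.79% did.

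Of 47 further genes of glucose entry, glycolysis, lactate handling and pyruvate use, 40 were measured by a probe set that names 1 gene. None was called in either comparison by limma, where 0.011% of genes were called in the 5 arrays and 0% in the 6. At an unadjusted p under 0.05 stood 1 in the 5 arrays, where 2.59% of all genes stood, and 0 in the 6, where 0.792% did. The changes in the 5 arrays ran from -0.21 to 0.36 with a median of 0.01 against 0.00 over all genes. The 1 with a small p was Ldhal6b, a lactate dehydrogenase known from testis, at 0.28 (SE 0.12, limma adjusted p = 1), with values near background. It read 4.38 and 4.30 in knockout replicates 1 and 2, against 3.96, 4.22 and 3.98 in wild type. Knockout replicates 1 and 2 lay above every wild-type array for this gene, where 8.4% of all probe sets did so. The third knockout-labelled array, at 3.47, lay below every wild-type array. Only 1 of the 6 arrays read above its highest Bacillus control. Others by p were Pfkl, a phosphofructokinase subunit, at -0.21, Hk3 at 0.19, the sperm isoform Gapdhs at 0.16 and the muscle phosphoglycerate mutase Pgam2 at 0.36. The transporter partner Emb stood at 0.18, the pyruvate carboxylase gene Pcx at -0.12 and the pyruvate dehydrogenase subunit Pdhb at 0.10. Pgam2 read 4.66 and 5.46 in knockout replicates 1 and 2, against 4.63, 5.29 and 4.17 in wild type, and thus was highest in the array with the highest muscle markers among these 5.

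In the array labelled knockout replicate 3, 13 of the 40 lay more than 1 log2 unit below the other arrays, where 11.5% of all genes did, and 4 as far above, where 15.8% did. Of the 11 measured genes from triose phosphates to pyruvate, 6 were among the 13, as were 6 of the 9 measured genes from hexokinase to aldolase, Aldoa among them. Of the 12 genes of pyruvate entry to mitochondria 0 were. Neuronal enolase (Eno2) read 8.92 there against 11.75 ± 0.16 (SD, n = 5). Tigar, a phosphatase that lowers fructose 2,6-bisphosphate, read 5.35 there, a log2 difference of -2.65 from the mean of the other arrays, and the platelet-type phosphofructokinase gene Pfkp read 8.93 against 11.32 ± 0.03 (SD, n = 5). Pfkl differed by -2.03 (log2) from the mean of the others, and Pgk1, phosphoglycerate kinase, by -1.93. In the other direction Ldhd, which encodes mitochondrial D-lactate dehydrogenase, read 10.59 against 6.09 ± 0.05 (SD, n = 5). Emb, the embigin partner of monocarboxylate transporters, read 11.16 against 8.04 ± 0.18 (SD, n = 5). Pdk4, the kinase that switches off pyruvate dehydrogenase, read 5.56 against 3.27 ± 0.19 (SD, n = 5), where the other 5 arrays lay below background. Pcx differed by 1.79. Basigin (Bsg), the other partner of these transporters, differed by -0.27, and the GLUT1 gene Slc2a1 by -0.53 (log2, both chosen after their values were seen).

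**Figure D4:**
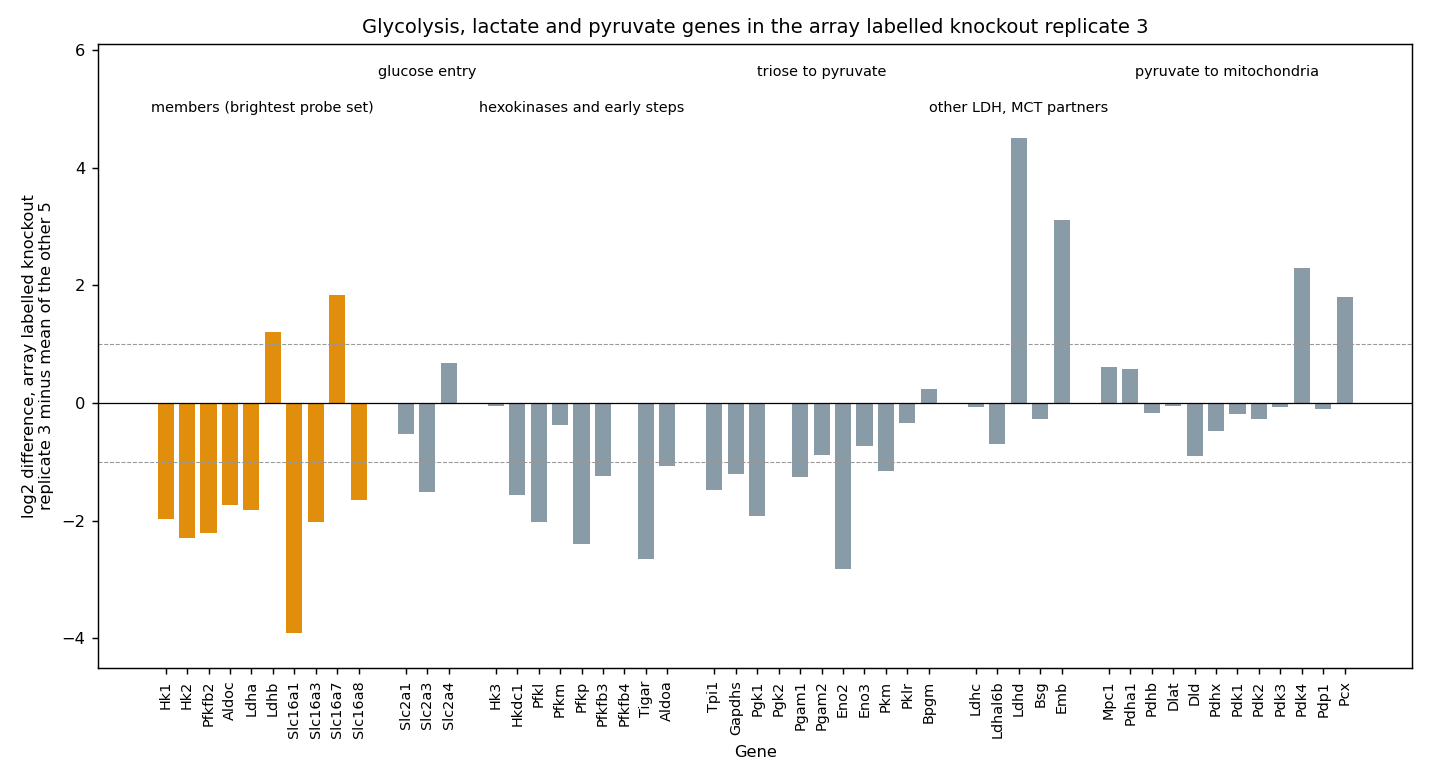
Log2 difference (y axis) between the array labelled knockout replicate 3 and the mean of the other 5 arrays for the 10 members (orange) and 40 further genes of the pathway (grey), each by its brightest probe set, in order of pathway step (x axis). Dashed lines mark a difference of 1; 8 members lie below and 2, Ldhb and Slc16a7, above, while Ldhd and Emb lead the further genes.

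Every member ranged over more than 1 log2 unit in the 6 arrays, so the genes with the most similar profile were found for each. Likeness was the root mean square difference over the 6 arrays after each gene was centred on its own mean, and it is led by the array labelled knockout replicate 3. For Slc16a8 the 3 nearest of 18193 genes were Rgr (0.11), an opsin of pigment epithelium and Müller glia, Nedd4l (0.12) and Oca2 (0.12), a melanosome transporter. For Slc16a1 they were A930011G23Rik, Rapgef5 and Elfn1 (each 0.07). Ldha was nearest to Necap1 (0.02), Fam184a (0.02) and Ablim1 (0.04), and Ldhb to Rilpl2, Mycbpap and Zfp36 (each 0.04). For Slc16a7 these were Tulp2, Med12l and Sec11c (each 0.04). Hk1 was nearest to Slc6a9 (0.04), a glycine transporter, and Aldoc to Csmd3 (0.03). Pfkfb2 was nearest to Sall2 (0.04). Among the arrays other than the one labelled knockout replicate 3, Hk2, Slc16a3 and Slc16a8 varied most by their brightest probe sets. Their nearest neighbours, Meak7 (0.13), Arhgap10 (0.12) and Rgr (0.11), were more distant than those of the other members.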

How the data were processed

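Retinal RNA was labelled with biotin and hybridised to one-colour Affymetrix arrays, per the labels' protocols. The log2 values deposited by the authors come from RMA (per the submitters' processing notes), a method that subtracts background, brings arrays to a common distribution and gives 1 value per probe set. Version and chip definition: not given in the sources used here. With array medians between 5.77 and 5.80 the values hold no information on total RNA, and they have no detection calls.

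Of 45101 probe sets 64 controls were left out. Groups come from the sample titles. Knockout was compared with wild type over 45037 probe sets by limma 3.58.1 (lmFit and eBayes, two-sided, Benjamini-Hochberg, threshold 0.05) in R 4.3.3, in 5 arrays without the array labelled knockout replicate 3 and in all 6. The procedure was tested on simulated data. Intervals are at 95% and not adjusted. A gene is given by its probe set with the highest mean, matched by symbol. Members and lists were chosen with earlier results of these data known. The text names all members, and up to 8 pathway genes by p and 8 by difference in that array. It names the nearest profile of each member, and for some members the 3 nearest. Alternatives were a trend and robust fit, array weights, other scalings, removal of dim probe sets, gene summaries, a replicate block, each array left out, and other thresholds. Figures used matplotlib 3.10.9.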

Additional observations from a re-analysis of the deposited data

How the results depend on the processing

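None of the 20 member probe sets was called under any alternative run, in 5 or in 6 arrays. The count of them at an unadjusted limma p under 0.05 did move from 0. In 5 arrays it was 1 with the trend and robust fit (1340 of all probe sets) and 1 with the replicate block (2055). Without wild-type replicate 1 it was 2 (1363), without wild-type replicate 2 it was 1 (877), and each gene summary gave 1 of 10 genes. Fits in 5 arrays that leave 1 knockout array are not given in these member counts, as that array has no spread of its own. In 6 arrays it was 2 with array quality weights (2372) and 1 without knockout replicate 1 (1056). Over all probe sets, the 5 calls in 5 arrays became 2 with 1 probe set per gene and 1 with the mean of all probe sets of a gene, settings that test fewer features, and 4 to 11 with an array left out. The 0 calls in 6 arrays (452 at an unadjusted p under 0.05) became 5 with array quality weights, 1 at a threshold of 0.1, and 0 to 5 with an array left out, the 5 without the array labelled knockout replicate 3. The sign of Pfkfb2 in 5 arrays turned with the mean of its probe sets (0.025), as did that of Aldoc (-0.085). In 6 arrays array quality weights turned Hk1 (0.0599), Aldoc (0.0175) and Slc16a7 (-0.0727). With an array left out, Hk1 ran from -0.0326 to 0.15 in 5 arrays and from -0.95 to 0.0452 in 6, Aldoc from -0.8346 to 0.0548 in 6 and Slc16a7 from -0.0823 to 0.90 in 6. The cause of these turns was not tested. The replicate block gave 6 calls in 5 arrays and 0 in 6, with 0 members in each. Nothing in the labels says that the numbers pair samples, and deviations of same-numbered arrays correlated at -0.06, -0.03 and -0.10 across probe sets in 6 arrays and at -0.07 and 0.15 for the 2 same-numbered pairs in 5. Values near background, as for Slc16a7 in the arrays other than the one labelled knockout replicate 3, limit what can be seen.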
